A study of Rattus norvegicus with 8 samples.

Results

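The 9 interferon-stimulated genes described here were Irf7, Irf1, Isg15, Usp18, Mx1, Mx2, Ifit2, Ifit3 and Gbp2, taken by symbol from the 37209 genes of the count table. All 9 were found, and all 9 were among the 14359 genes with enough counts for the test. The arteries came from male Sprague-Dawley rats. Injured arteries were left carotid arteries whose intima had been damaged with a balloon catheter, and control arteries were undamaged right carotid arteries, described by the labels as the animals' own controls. Each group held 4 arteries, all collected 2 weeks after surgery, and each library was made from the whole artery. The labels of the extraction step name the prefrontal cortex, while every other label names the carotid artery.

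Interferons are secreted proteins by which cells warn their neighbours of infection or damage. Type I interferons signal through the receptor chains Ifnar1 and Ifnar2 and the kinases Jak1 and Tyk2 to a complex that includes Stat2 and Irf9 and binds the interferon-stimulated response element (ISRE). Interferon gamma signals through Ifngr1 and Ifngr2, Jak1 and Jak2, and the response acts on genes through the gamma-activated site (GAS). In the vessel wall, smooth muscle cells, endothelial cells and macrophages can all respond to interferon.

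The total was between 13470754 and 15276952 counts in the control libraries and between 11459632 and 16658089 in the injured ones. In CPM (counts per 1000000 counts of a library, scaled by edgeR's TMM factors), 3 counts were worth 0.168 to 0.245 CPM, a limit that covers counting error only. The lowest count of any of the 9 genes in any artery was 55. Control artery 4 stood apart, since its log2 CPM correlated with the other controls at 0.83 to 0.852 across the genes tested, against 0.976 to 0.978 among the other 3. The summed level of 8 sympathetic neuron markers was 10940 CPM in control artery 4, 3070 CPM in injured artery 3, 199 CPM in injured artery 1 and between 5.07 and 11 CPM in the remaining arteries. The summed level of 7 smooth muscle markers was 36990 to 50150 CPM in control arteries 1 to 3, 17280 CPM in control artery 4 and 10400 to 16360 CPM in the injured arteries.

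The RefSeq promoter table of the rat assembly GRCr8, with windows from 250 bases before to 50 bases after each gene's start, held 5 of the 9 genes, namely Irf7, Irf1, Mx1, Ifit3 and Gbp2. Ifit2, Isg15, Mx2 and Usp18 were not matched. The core of the ISRE was searched on both strands as GAAA, 2 bases of any kind and GAAA, which reads TTTC, 2 bases and TTTC on the other strand. It was present in the windows of Irf7, Ifit3 and Gbp2, and in 3.92% of all 33469 windows. The GAS was searched on both strands as TTC, 3 bases of any kind and GAA. It was present in the window of Irf1 and in 8.87% of all windows. The window of Mx1 held neither string of letters, and none of the 5 windows held both. These matches describe the sequence and do not show binding. The 4 stretches of 60 bases are shown because they hold the searched letters in the 4 genes with a match. They are written 5′ to 3′ along the gene, with the match in capitals, which begins 69 bases upstream of the start in Irf7, 44 in Ifit3, 31 in Gbp2 and 142 in Irf1. They lie at chr1:205800058-205800117 on the minus strand for Irf7 and, on the plus strand, at chr1:241527257-241527316 for Ifit3, chr2:234005667-234005726 for Gbp2 and chr10:38417768-38417827 for Irf1, all in GRCr8.
Irf7: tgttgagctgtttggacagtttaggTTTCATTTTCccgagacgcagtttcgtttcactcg
Ifit3: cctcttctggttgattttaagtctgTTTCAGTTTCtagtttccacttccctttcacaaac
Gbp2: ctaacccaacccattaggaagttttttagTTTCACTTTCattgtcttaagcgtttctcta
Irf1: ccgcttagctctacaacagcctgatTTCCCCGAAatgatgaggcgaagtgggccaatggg

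Compared with the contralateral arteries, 4 of the 9 genes were upregulated in the injured arteries, namely Mx1, Ifit3, Irf7 and Gbp2. A gene was called at an FDR under 0.05 together with a fold change above 2 in edgeR's quasi-likelihood test, and 8.31% of all genes tested were called higher by this rule. DESeq2 called the same 4 genes, against 6.83% of the genes it tested, and so did edgeR with library totals as the only scaling, against 9.97%. Other settings called fewer. With arteries of the same number treated as pairs, 2 were called, Irf7 and Gbp2, against 6.64% of all genes. Tested against a fold change of 2, only Gbp2 was called, against 4.18%. With each artery left out in turn, 1 to 4 were called, against 6.4% to 12.3%, and Gbp2 was always among them. By the FDR alone 5 of the 9 were higher, with Irf1 as the fifth, against 10.8% of all genes. Of the 9, 0 were called lower by either tool, while 2.57% of all genes were. The log2 fold change was above 0 for all 9 genes, as it was for 45.2% of all genes tested. Its median was 1.35 over the 9 genes and -0.06 over all genes tested. In 4 of the 9 genes, namely Mx1, Ifit3, Gbp2 and Irf1, every injured artery lay above every control artery, which held for 14.2% of all genes tested. The reverse held for 0 of the 9 and for 9.51% of all genes. In whole arteries, more cells of a type and more RNA per cell cannot be told apart.

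**Figure D1:**
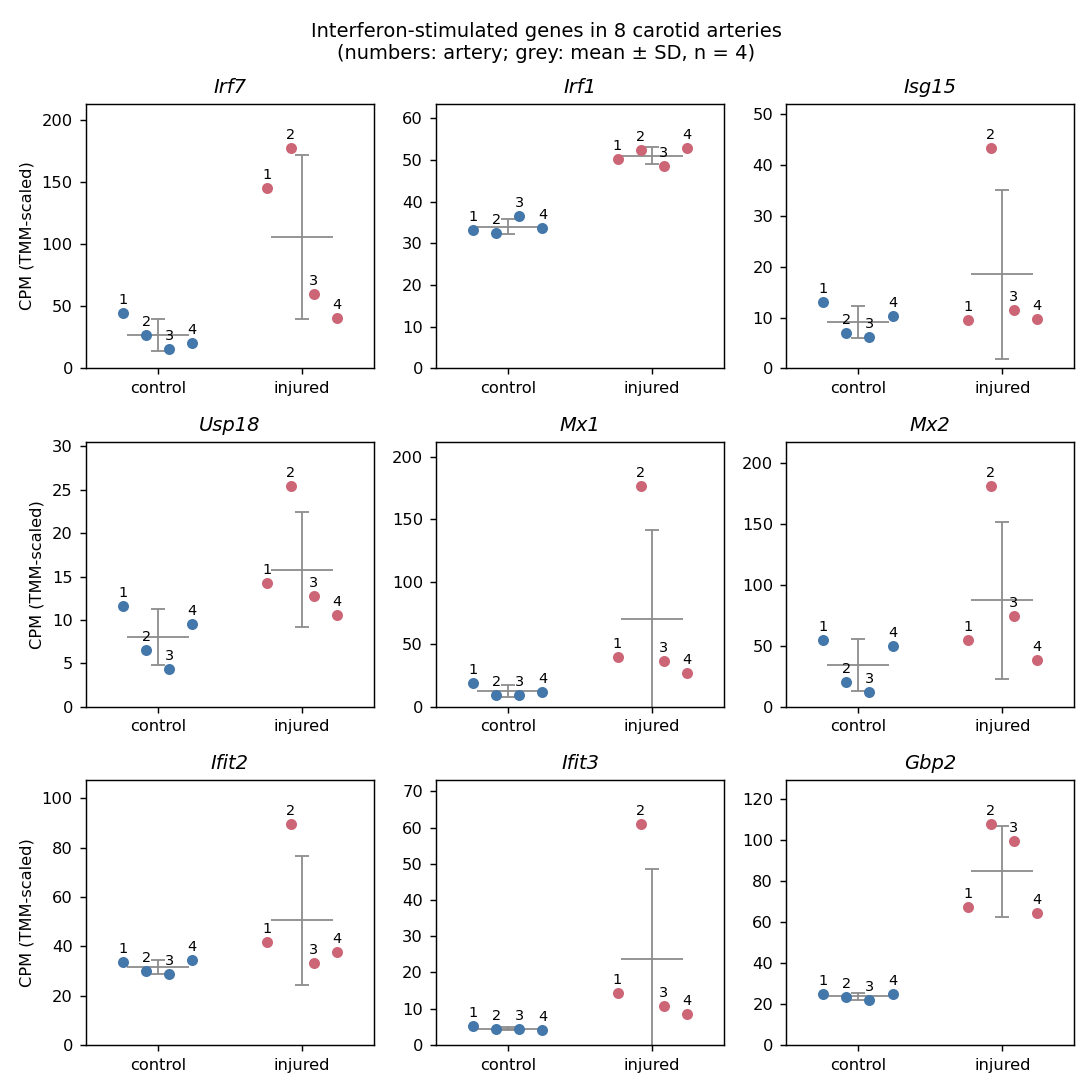
TMM-scaled CPM of the 9 interferon-stimulated genes in each control artery (blue) and injured artery (red), with the artery's number beside its point and the mean ± SD of 4 arteries in grey, on linear axes that start at 0; a lower bar that would pass below 0 ends at the axis. Injured artery 2 is the highest injured artery in every panel except that of Irf1.

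Irf7 and Irf1 are transcription factors of the interferon response. Irf7 drives the production of type I interferons and is itself induced by them. Irf7 mRNA was 45.0, 26.6, 15.6 and 20.4 CPM in control arteries 1 to 4, and 145, 178, 59.7 and 41.0 CPM in injured arteries 1 to 4. Injured arteries 1 and 2 were far above every control, injured artery 3 was above them by less, and injured artery 4 lay just below control artery 1. The mean was thus 26.9 ± 12.9 CPM (SD, n = 4) in the controls and 106 ± 66.0 CPM (SD, n = 4) after injury. Irf7 thus rose by 1.98 on the log2 scale (standard error 0.53, edgeR adjusted p = 0.0375). An exact permutation test on log2 CPM gave p = 0.0571, two-sided, where 0.0286 is the smallest p that the 70 relabellings of 4 against 4 arteries allow.

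Irf1 is induced by interferon gamma and by type I interferon, and it activates genes of antigen presentation and host defence. Irf1 mRNA was 33.3, 32.5, 36.5 and 33.7 CPM in control arteries 1 to 4, and 50.2, 52.5, 48.5 and 52.9 CPM in injured arteries 1 to 4. The groups did not overlap, and the arteries within each group were close together. The highest injured artery had 1.09 times the level of the lowest, and among the controls this ratio was 1.12. On the log2 scale Irf1 was higher by 0.58 (standard error 0.09, edgeR adjusted p = 0.0041), the second smallest adjusted p of the 9 genes. Its fold change of 1.5 was below 2, so Irf1 was not called. The exact permutation test gave p = 0.0286, two-sided.

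Isg15 encodes a ubiquitin-like protein that is attached to other proteins, and Usp18 is the protease that removes it and also damps signaling at the type I receptor. Isg15 mRNA was 13.1, 6.95, 6.14 and 10.3 CPM in control arteries 1 to 4, and 9.59, 43.4, 11.4 and 9.70 CPM in injured arteries 1 to 4. Injured artery 2 was far above all other arteries, whereas the other 3 injured arteries lay within the range of the controls. Isg15 was not called, at a log2 fold change of 1.02 (standard error 0.55, edgeR adjusted p = 0.253). Its log2 fold change was 0.17 (standard error 0.30) without injured artery 2. The exact permutation test gave p = 0.257, two-sided.

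Usp18 mRNA was 11.6, 6.54, 4.35 and 9.55 CPM in control arteries 1 to 4, and 14.3, 25.4, 12.8 and 10.6 CPM in injured arteries 1 to 4. Injured artery 2 was again the highest, and only injured artery 4 lay below the highest control. Usp18 was not called either, at a log2 fold change of 0.98 (standard error 0.38, edgeR adjusted p = 0.119). The enzymes that attach Isg15, listed with the pathway, were not called by edgeR or by DESeq2, although 2 of the 5 had an unadjusted p under 0.05 in edgeR's test. These were the activating enzyme Uba7 with a log2 fold change of 0.83, the conjugating enzyme Ube2l6 with 0.50 and the ligases Herc6 with 0.61, Trim25 with 0.76 and Arih1 with -0.20. Of these 5, only Trim25 had an edgeR adjusted p under the threshold, 0.0467, at a fold change below 2. Without control artery 4, 1 of the 5 was called higher, against 12.3% of all genes tested.

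Mx1 and Mx2 encode dynamin-like GTPases that block the replication of viruses. Mx1 mRNA was 19.2, 9.31, 9.46 and 12.0 CPM in control arteries 1 to 4, and 39.7, 177, 36.6 and 27.3 CPM in injured arteries 1 to 4. Every injured artery lay above every control, and injured artery 2 had 5.11 times the mean of the other 3 injured arteries. The mean was 12.5 ± 4.62 CPM (SD, n = 4) in the controls and 70.1 ± 71.3 CPM (SD, n = 4) after injury. Mx1 had the largest log2 fold change of the 9 genes, 2.49 (standard error 0.64, edgeR adjusted p = 0.0326), and the exact permutation test gave p = 0.0286, two-sided. Without injured artery 2, Mx1 was still called, at a log2 fold change of 1.47 (standard error 0.30, edgeR adjusted p = 0.0257). With arteries of the same number treated as pairs, Mx1 was not called, at 2.04 (standard error 0.60, edgeR adjusted p = 0.102).

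Mx2 varied more than Mx1 among the controls. Mx2 mRNA was 54.4, 20.4, 11.9 and 49.9 CPM in control arteries 1 to 4, and 55.0, 181, 74.7 and 38.1 CPM in injured arteries 1 to 4. The controls varied by a factor of 4.55 between the highest and the lowest, the widest range of the 9 genes in that group, and injured artery 4 lay below control arteries 1 and 4. Mx2 was not called, at a log2 fold change of 1.35 (standard error 0.62, edgeR adjusted p = 0.18). Leaving out injured artery 2 gave 0.71 (standard error 0.54). Reads shared between near-identical genes may be split or lost by the counting, whose treatment of such reads is not given in the sources used here, so the values of gene families such as Mx and Oas are uncertain.

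Ifit2 and Ifit3 belong to a family of proteins that bind foreign RNA and restrain its translation. Ifit3 mRNA was 5.09, 4.49, 4.42 and 4.08 CPM in control arteries 1 to 4, and 14.4, 60.9, 10.9 and 8.56 CPM in injured arteries 1 to 4. The controls were tightly grouped, every injured artery lay above them, and injured artery 2 had 5.41 times the mean of the other 3. Ifit3 rose by 2.39 on the log2 scale (standard error 0.64, edgeR adjusted p = 0.0366), and the exact permutation test gave p = 0.0286, two-sided. Ifit3 was also called without injured artery 2, at a log2 fold change of 1.32 (standard error 0.22, edgeR adjusted p = 0.0148). With arteries of the same number treated as pairs, Ifit3 was not called, at 1.86 (standard error 0.52, edgeR adjusted p = 0.089). Irf7 and Gbp2 kept their calls in that fit.

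Ifit2 mRNA was 33.7, 30.2, 28.6 and 34.4 CPM in control arteries 1 to 4, and 41.7, 89.5, 33.1 and 37.7 CPM in injured arteries 1 to 4. Injured artery 3 lay within the range of the controls, injured arteries 1 and 4 lay slightly above it, and injured artery 2 stood far above. Ifit2 was not called, at a log2 fold change of 0.67 (standard error 0.31, edgeR adjusted p = 0.182). Its value fell to 0.24 (standard error 0.14) when injured artery 2 was left out. Ifit1, a further gene of the family on the list of other type I genes, had 272, 94, 124 and 60 counts in control arteries 1 to 4, and 251, 699, 213 and 33 counts in injured arteries 1 to 4. Its lowest count was therefore in an injured artery, and its log2 fold change of 1.00 (standard error 0.81) was not called (edgeR adjusted p = 0.444).

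Gbp2 encodes a guanylate-binding protein, a GTPase strongly induced by interferon gamma that acts on intracellular pathogens. Gbp2 mRNA was 25.04, 23.2, 21.7 and 24.7 CPM in control arteries 1 to 4, and 67.5, 108, 99.7 and 64.2 CPM in injured arteries 1 to 4. The lowest injured artery was well above the highest control, and injured arteries 2 and 3 were close to each other. The mean was 23.7 ± 1.52 CPM (SD, n = 4) in the controls and 84.8 ± 22.2 CPM (SD, n = 4) after injury. Gbp2 rose by 1.84 on the log2 scale (standard error 0.19, edgeR adjusted p = 0.000786), with the smallest adjusted p of the 9 genes. It remained called in each of the 8 fits that left out a single artery, with a log2 fold change between 1.71 and 1.95.

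**Figure D2:**
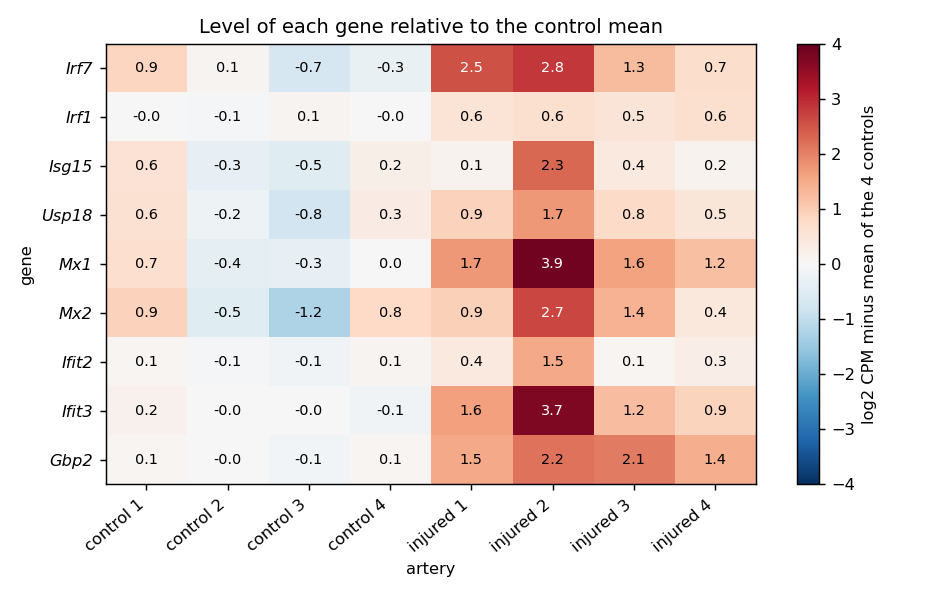
Log2 CPM of each gene (rows) in each artery (columns), minus the mean log2 CPM of that gene in the 4 controls, with the value printed in each cell. The column of injured artery 2 reaches 3.87 for Mx1, while the row of Irf1 stays between 0.51 and 0.64 in all injured arteries.

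The injured arteries thus differed among themselves in these genes. Injured artery 2 was the highest injured artery for 8 of the 9 genes, which held for 26% of all genes tested, and injured artery 4 was the lowest for 6. Among the controls, control artery 1 was the highest for 7 of the 9, against 23.3% of all genes tested, and control artery 3 was the lowest for 6. The ratio of the highest to the lowest injured artery had a median of 4.34 over the 9 genes and of 1.40 over the 11644 tested genes with a mean of at least 4 CPM. For the controls these medians were 2.06 and 1.66. Gbp2 and Irf1 were the least variable of the 9 in both groups, with ratios of 1.68 and 1.09 in the injured arteries and of 1.15 and 1.12 in the controls. The mean of injured arteries 1, 3 and 4 was 3.26 times the control mean for Gbp2, 3.05 times for Irf7, 2.77 times for Mx1 and 2.49 times for Ifit3. It was 1.64 times for Mx2, 1.57 times for Usp18, 1.49 times for Irf1, 1.18 times for Ifit2 and 1.12 times for Isg15. The 9 genes thus fell in a different order once injured artery 2 was set aside.

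Each artery was left out in turn to see which calls rested on it. Without control artery 4, the same 4 genes were called, against 12.3% of all genes tested. Without injured artery 2, against 6.46% of all genes, Irf7 was lost at a log2 fold change of 1.61 (edgeR adjusted p = 0.104). Without control artery 2 and without control artery 3, Gbp2 alone was called, against 7.14% and 7.09% of all genes. Ifit3 then had adjusted p-values of 0.0954 and 0.0926, Mx1 of 0.0937 and 0.0905 and Irf7 of 0.0969 and 0.0958, all from edgeR's test. Without control artery 1, against 7.24% of all genes, Ifit3 and Mx1 were lost at adjusted p-values of 0.0838 and 0.0538, and without injured artery 1, against 7.13%, Ifit3 and Irf7 were lost at 0.054 and 0.0931, again from edgeR's test. The log2 fold changes of the lost genes lay between 1.61 and 2.77 in these fits. Without both injured artery 2 and control artery 4, a fit added after the values were seen, Ifit3, Mx1 and Gbp2 were called and Irf7 was not, at a log2 fold change of 1.502 (edgeR adjusted p = 0.0837), while 11.8% of all genes were called higher. No log2 fold change of the 9 genes changed its sign in any fit.

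**Figure D3:**
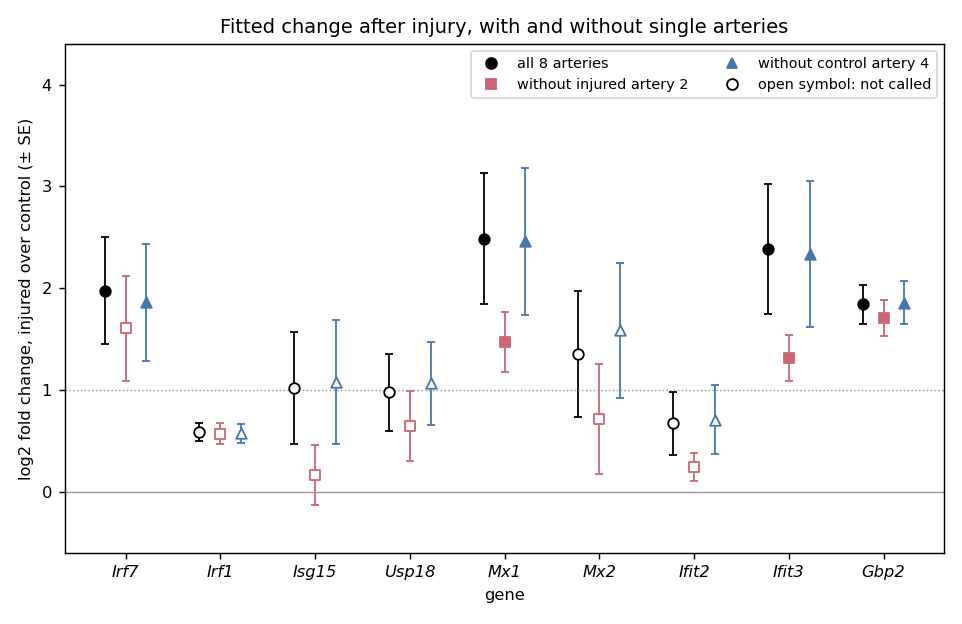
Log2 fold change of injured over control arteries, with the standard error as bars, for the 9 genes in the fit on all 8 arteries (black) and in the fits without injured artery 2 (red) and without control artery 4 (blue); filled symbols were called and the dotted line marks a fold change of 2. Mx1 fell from 2.49 to 1.47 and Isg15 from 1.02 to 0.17 without injured artery 2, whereas Gbp2 moved from 1.84 to 1.71.

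The rest of the pathway was read from 6 lists, whose genes are counted once where lists overlap. Of 105 genes tested, 23 were upregulated, against 8.31% of all genes, 0 were downregulated, against 2.57%, and the median log2 fold change was 0.61. In edgeR's test 54 were higher and 4 lower at an unadjusted p under 0.05, and DESeq2 also called 0 lower. With an FDR under 0.05 alone, 39 were higher, against 10.8% of all genes, and 3 were lower, against 920 of the 14359 genes tested. The 3 were Pias1, a SUMO ligase, at -0.63, the phosphatase gene Ptpn11 at -0.39 and the adaptor gene Traf3 at -0.42 on the log2 scale. Every injured artery lay above every control for 45 of the 105 and for 14.2% of all genes. Injured artery 2 was the highest injured artery for 76 of the 105 and for 37 of the 42 other type I genes, against 26% of all genes.

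Interferon transcripts themselves were at or near the limit of detection. Ifna1, Ifna2, Ifna4, Ifnb1, Ifnk and Ifnl3 had 0 counts in all 8 arteries, which allows a level of up to 0.168 to 0.245 CPM, depending on the library. Ifng, the gene of interferon gamma, had 3 counts in control artery 2, 3 in injured artery 4 and 0 in the others, and Ifne had at most 5 in any artery. None of these ligands passed the filter on low counts. The receptor chains were well detected, with Ifnar1 at 99.6 ± 12.1 CPM (SD, n = 4) in the controls and 113 ± 9.84 CPM (SD, n = 4) after injury. Ifnlr1, the specific receptor chain for lambda interferons, was the only receptor called, rising by 1.35 on the log2 scale (standard error 0.27, edgeR adjusted p = 0.0117). Ifnar2, Ifngr1, Ifngr2 and Il10rb, a chain shared by the lambda and interleukin 10 receptors, had log2 fold changes of 0.71, 0.63, 0.92 and 0.95. Their edgeR adjusted p-values were 0.00496, 0.0137, 0.0486 and 0.00355, and each rose by a fold change below 2 with all injured arteries above all controls. Ifnar1 had 0.19 (edgeR adjusted p = 0.337). Without control artery 4, 3 receptor chains were called higher, against 12.3% of all genes tested.

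Among the transducers, Irf5, Ptpn6, Socs3, Irf8 and Irf4 were called higher, 5 of 19, against 8.31% of all genes. Of the 19, 0 were called lower, against 2.57%. Irf5 and Irf8 are transcription factors of myeloid cells, Irf4 acts in lymphocytes and macrophages, Ptpn6 is a phosphatase of blood cells, and Socs3 inhibits receptors of the interleukin 6 family. Their log2 fold changes were 2.80, 2.75, 2.17, 2.16 and 1.77 in the order named. Stat2 and Irf9, through which the type I receptor signals, were not called. Stat2 had 0.23 on the log2 scale (edgeR adjusted p = 0.404), and Irf9 had 0.39 (edgeR adjusted p = 0.0482). The kinases Jak2 and Tyk2 had log2 fold changes of 0.79 and 0.82, with edgeR adjusted p-values of 0.00317 and 0.00605. Jak1 was 270 ± 15.3 CPM (SD, n = 4) in the controls and 270 ± 9.06 CPM (SD, n = 4) after injury. Irf3, which triggers interferon production after viral sensing, had a log2 fold change of 0.55 (edgeR adjusted p = 0.0987).

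Of the 18 sensors and adaptors of foreign or misplaced nucleic acids that could be tested, 5 were called higher, against 8.31% of all genes. These were Aim2, a sensor of cytosolic DNA, Tlr9, an endosomal receptor for DNA, Unc93b1, the protein that carries such receptors to endosomes, Samhd1, which degrades nucleotides, and Dhx58, a helicase of the RNA sensor family. Unc93b1 was 13.9 ± 2.32 CPM (SD, n = 4) in the controls and 68.6 ± 9.04 CPM (SD, n = 4) after injury, a rise of 2.31 on the log2 scale (standard error 0.16, edgeR adjusted p = 0.000226). Aim2 and Tlr9 had at most 5 and 6 counts in any control, so their log2 fold changes of 4.53 and 4.22 rest on few control reads. Samhd1 had a log2 fold change of 1.27 and Dhx58 of 1.24. Tlr7 and Tlr8 had 0 counts in all arteries. Without injured artery 2, 3 genes of this list were called higher, against 6.46% of all genes tested.

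The 42 other genes of the type I response gave 7 called higher, against 8.31% of all genes, and 0 called lower, against 2.57%. Their median log2 fold change was 0.61, and 38 values were above 0. Ifitm1, a membrane protein that hinders viral entry, had the largest log2 fold change of the list, 3.34 (standard error 0.33, edgeR adjusted p = 0.000606). It was 2.49 ± 0.89 CPM (SD, n = 4) in the controls and 25.3 ± 5.77 CPM (SD, n = 4) after injury. Its relatives Ifitm2 and Ifitm3 had log2 fold changes of 0.06 and -0.01. Oasl, Oas2 and Oas3, of the family that senses double-stranded RNA, had log2 fold changes of 2.46, 2.17 and 2.08, while Oas1a and Oas1b, at 1.05 and 0.70, were not called. Epsti1 with 2.35, Phf11 with 2.19 and Dhx58 with 1.24 completed the list of those called. Without control artery 4, 12 genes of this list were called higher, against 12.3% of all genes tested.

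Of the 23 genes induced by interferon gamma that could be tested, 7 were called higher, against 8.31% of all genes, and 0 lower, against 2.57%. Their median log2 fold change was 0.57. Ciita, the master regulator of MHC class II genes, rose by 3.43 on the log2 scale (standard error 0.57, edgeR adjusted p = 0.00544). It ranged from 0.29 to 2.91 CPM in the controls and from 15.2 to 18.2 CPM after injury. Cxcl10 and Cxcl9, chemokines that attract T cells, had log2 fold changes of 3.15 and 2.69. Irf8 had 2.16, the guanylate-binding protein gene Gbp4 had 1.55, Nlrc5, a regulator of MHC class I genes, had 1.42, and Tap1, a peptide transporter for class I molecules, had 1.04. B2m, the common chain of class I molecules, was 975 ± 97.3 CPM (SD, n = 4) in the controls and 1049 ± 92.1 CPM (SD, n = 4) after injury and was not called.

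**Figure D4:**
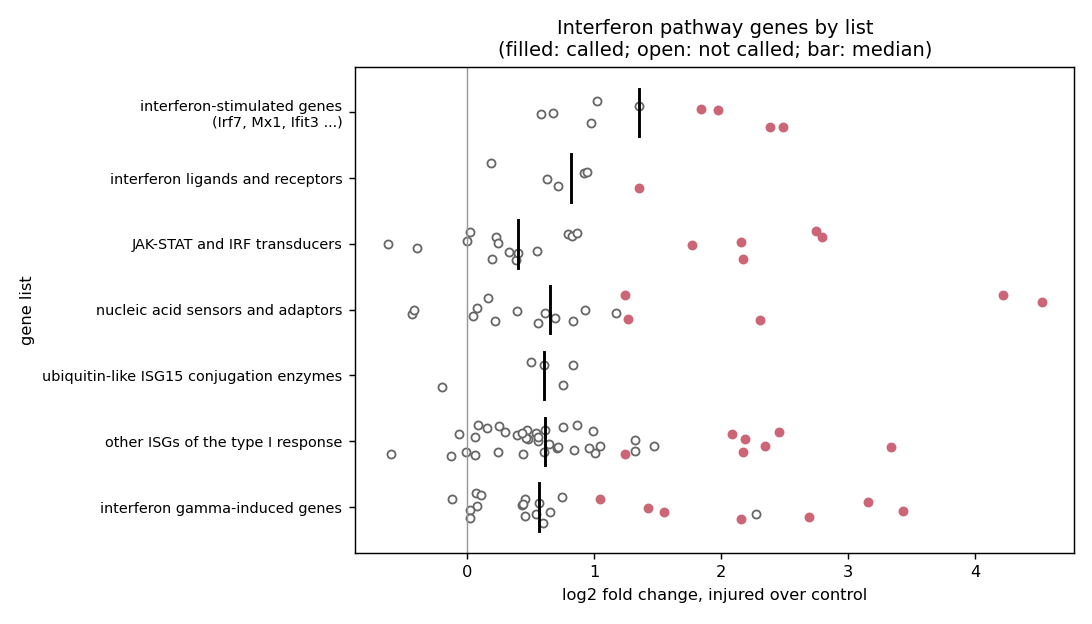
Log2 fold change of injured over control arteries for each tested gene of the 9 interferon-stimulated genes and of the 6 pathway lists, with called genes filled, others open, and the median of each list as a bar; a gene on several lists is drawn in each. The medians of the lists lie between 0.40 and 0.82, and that of the 9 genes at 1.35.

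Markers of leukocytes moved with injury as well. Over all genes tested, 8.31% were called higher and 2.57% lower. The share called higher was 6.46% without injured artery 2 and 12.3% without control artery 4. Of 12 macrophage markers, 11 were called higher, and their summed level was 227 to 335 CPM in the controls and 1895 to 2810 CPM after injury, highest in injured artery 2. Of 6 plasmacytoid dendritic cell markers tested, 4 were called higher, with summed levels of 99.5 to 127 CPM in the controls and 188 to 270 CPM after injury, and this list shares Bst2 and Irf8 with the pathway lists. Among the T cell markers 3 of 7 were called higher, with 18.5 to 38.0 CPM in the controls and 126 to 160 CPM after injury, and 1 of them was called without injured artery 2. Cd4, which macrophages of the rat can also carry, made up most of that sum, and without it the T cell markers summed to 0.554 to 6.70 CPM in the controls and 8.56 to 19.1 CPM after injury. Cd4, Cd2 and Cd8b were the 3 called, and Cd3d, Cd3e and Cd3g were not. The 6 NK cell markers summed to at most 1.04 CPM in a control and to 4.70 to 8.94 CPM after injury, with 2 of 2 tested called higher, 0 called without injured artery 2 and Klrb1 at 0 counts. The 5 B cell markers summed to at most 2.45 CPM in any artery, with Cd79a at 0 counts and none abundant enough for edgeR's test, while DESeq2, which kept more genes, called 2 higher. The neutrophil markers summed to 2.51 to 6.58 CPM in the controls and 8.23 to 25.7 CPM after injury, highest in injured artery 2, with 2 of 3 called higher and 1 without injured artery 2 or without control artery 4. Mpo, a further neutrophil marker that did not pass the filter of edgeR, was 2.99 ± 2.24 CPM (SD, n = 4) in the controls and 0.272 ± 0.227 CPM (SD, n = 4) after injury, and DESeq2 called it lower. The part of these cells in the levels of the interferon-stimulated genes was not tested.

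The markers of resident cells were mixed, while 8.31% of all genes tested were called higher and 2.57% lower. Of 7 smooth muscle markers, 5 were called lower after injury, and 7 without control artery 4. Of 8 endothelial markers, 3 were called higher and 1 lower, with summed levels of 878 to 2299 CPM in the controls and 781 to 1105 CPM after injury. Of 5 fibroblast markers, 1 was called higher and 1 lower. Of 8 skeletal muscle markers, 6 were called higher, with 83.6 to 251 CPM in the controls and 287 to 1049 CPM after injury, highest in injured artery 4. None of the Schwann cell, sympathetic neuron or adipocyte markers was called in edgeR's quasi-likelihood test or by DESeq2, with 0 at an unadjusted p under 0.05. Without control artery 4, 1 Schwann cell marker and 1 sympathetic neuron marker were called higher, against 12.3% of all genes tested. Their part was not tested either.

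The genes whose pattern over the 8 arteries came closest to the mean pattern of the 9 were Samhd1, LOC100909828, Oas1a, Dhx58 and RT1-T24-3. Closeness was the root mean square distance of log2 CPM, centred on each gene's own mean, over the 8 arteries. It was 0.24 for Samhd1, 0.28 for LOC100909828 and 0.29 for each of the other 3. Among the 9 genes themselves it was smallest for Usp18, at 0.26, and largest for Irf1, at 0.63.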

How the data were processed

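The authors deposited raw counts of reads per gene symbol for 8 libraries, 4 from injured and 4 from control arteries. HISAT2 2.0.4 is named in the submitters' processing notes. The counting tool, genome build, annotation and strand setting are not given in the sources used here, so overlapping genes and near-identical copies are uncertain. The labels do not say whether same-numbered arteries came from the same rat. The main test and the exact permutation test took the 8 arteries as independent, although the labels describe the controls as the animals' own. Their p-values measure the spread between these arteries and take no account of a shared rat.

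Counts were analysed with edgeR 4.0.16 in R 4.3.3 (filterByExpr, TMM scaling, quasi-likelihood test without covariates, Benjamini-Hochberg adjustment over the 14359 genes tested). Standard errors came from the F statistic. CPM values use the TMM factors, and log2 CPM has a prior count of 2. The exact permutation test used the difference in mean log2 CPM. Alternatives were DESeq2 1.42.0, other scalings, filters and thresholds, a replicate block and each artery left out.

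The genes and lists were chosen with earlier results of these data known. All 9 genes were named, together with called pathway genes (all those of lists with at most 8), receptors, main transducers and the 5 genes of closest pattern. Oas1b, Ifitm2, Ifitm3, B2m, Pias1, Ptpn11, Traf3, Mpo, the T cell markers and the enzymes of Isg15 conjugation were added after their values were seen. The values of 1 listed transducer are not reported here. The listed symbols Gbp3, Ifnl1, Ifi16 and Trbc2 were not matched. Promoter windows were matched by symbol, and their assembly, GRCr8, may differ from that of the counts.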

Additional observations from a re-analysis of the deposited data

Results flagged for a closer look

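The 9 genes gave 18 groups of 4 arteries, and in 4 of them 1 artery stood apart from the other 3 by Dixon's test at the 95% level, which divides the gap to the nearest artery by the range. For separate groups of normally distributed values, chance gives about 1 in 20, or 0.9 here. The 18 groups share the same arteries, and the ratio was taken on CPM, not on log2 CPM. The number expected by chance therefore cannot be used to judge the 4. Injured artery 2 was the extreme artery in all 4. The ratio was 0.946 for Isg15 (43.4 CPM against 11.4 in the nearest injured artery), 0.917 for Mx1 (177 against 39.7 CPM), 0.889 for Ifit3 (60.9 against 14.4 CPM) and 0.847 for Ifit2 (89.5 against 41.7 CPM). The 4 values come from the same library, with 13389945 counts in all, and the cause was not tested.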

How the results depend on the processing

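The number of the 9 genes called was 4 with all 8 arteries, against 8.31% of all genes called higher. It was also 4 with DESeq2, against 6.83%, with library totals only, against 9.97%, and with upper-quartile factors, against 8.77%. The filter of at least 10 counts in every sample gave 4, against 5.8%, and so did no filter beyond 1 count, against 5.02%. The FDR alone gave 5, against 10.8%, which adds Irf1. Tested against a fold change of 2, 1 was called, against 4.18% of all genes higher. With the replicate block, 2 were called, against 6.64%, and Ifit3 and Mx1 were lost at adjusted p-values of 0.089 and 0.102 in edgeR's test. Arteries with the same number deviated together in 2 of 4 cases, with correlations of 0.301, 0.45, -0.52 and -0.416. Of the 4 injured arteries, 2 correlated best with their own number. These correlations cannot decide whether the numbers mark rats, because differences in tissue between arteries enter them too. Sympathetic neuron markers, for example, summed to 10940 CPM in control artery 4 and to 11 CPM in injured artery 4. With each artery left out, 1 to 4 of the 9 were called, against 6.4% to 12.3% of all genes higher. Of the 105 pathway genes, 23 were called, against 8.31% of all genes higher, and 14 when tested against a fold change of 2, against 4.18%. With the FDR alone 42 were called, 39 of them higher, against 10.8%, and 19 to 30 were called with an artery left out. The 19 came without control artery 2, against 7.14% of all genes higher, and the 30 without control artery 4, against 12.3%. Library totals only moved the median of all genes by 0.178 and that of the 9 genes from 1.35 to 1.51 on the log2 scale. The exact permutation test gave 4 genes its smallest p with either prior count. Of 153 values of the 9 genes in the alternative settings, 135 stayed on their side of the threshold, 17 lost the call and 1 gained it. None changed sign. Genes not called with all 8 arteries could not lose a call, and all 17 losses were in Ifit3, Mx1 and Irf7. With single arteries left out, Ifit3 was called in 4 of 8 fits, Mx1 in 5 and Irf7 in 4. Each of these was called in 7 of the 9 other settings, and Gbp2 was called in all. Depth limited the interferon ligands, which had at most 5 counts in any artery.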
